A study of Mus musculus with 6 samples.

Results

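The p200 family consists of interferon-inducible proteins encoded side by side on mouse chromosome 1, and 10 of its genes are described here: Ifi202b, Ifi203, Ifi204, Ifi205, Ifi207, Ifi209, Ifi211, Ifi213, Mndal and Aim2. They were taken by gene symbol from the 17909 gene identifiers listed in the series, and all 10 were listed. Ifi202b was among the largest increases of the comparison described below, and the family was chosen by that measured change. The differences of the 10 genes between the genotypes are therefore given as a description, and nothing is tested or supported with them.

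RNA had been sequenced from 6 cultures of primary mouse hepatic stellate cells, the vitamin A-storing pericytes of the liver that become myofibroblast-like in culture. The first 3 libraries, the HAS2_Tg group (replicates 4, 5 and 6), came from ASMA-HAS2 Tg mice, in which the alpha smooth muscle actin promoter drives a human HAS2 transgene. The other 3, the Has2_KO group (replicates 7, 8 and 9), came from HSC-specific Has2 KO mice, in which Lrat-Cre removes floxed Has2 from stellate cells. All 6 are labelled as C57BL/6, male, 24 weeks old and day 1: cells had been freed of macrophages with Cd11b beads, left 4 h to attach and cultured 14 h more in 10% serum. Has2 encodes a synthase of the matrix polysaccharide hyaluronan. No wild-type or Cre-only library entered the comparison, so a difference cannot be assigned to the transgene or to the deletion. The promoter of the transgene is itself active in activated stellate cells, and Lrat marks that lineage in the liver. The labels do not say whether the libraries came from separate animals, so the adjusted p-values measure the spread between these libraries, which may be technical.

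p200 proteins carry a DNA-binding HIN domain, and most also carry a pyrin domain through which they assemble with partner proteins. Interferons bind receptors that activate STAT and IRF factors, and these raise many p200 genes in immune and stromal cells. Aim2 senses DNA in the cytosol and forms an inflammasome with the adaptor Pycard and the protease Casp1, whereas Ifi202b lacks the pyrin domain and is known as an inhibitor of Aim2. The level of Ifi202b is known to differ between inbred mouse strains and to be low in C57BL/6. The genotype of the locus in these mice was not measured here, and the labels do not give the number of backcrosses.

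Because the family arose by duplication, its sequences are shown before its values. Ifi202b occupies positions 173962569 to 173982844 of chromosome 1, transcribed from the minus strand (GRCm38, the assembly also called mm10). The 250 bases before its RefSeq start, chr1:173982845-173983094 on the minus strand of GRCm38.p6, are shown because they are the promoter of the copy that differed most. Capitals mark the only place that matches TTCNNNGAA, a pattern that reads the same on both strands and is the core of the gamma-activated sites of interferon-responsive genes. It lies 148 bases before the start.
Ifi202b: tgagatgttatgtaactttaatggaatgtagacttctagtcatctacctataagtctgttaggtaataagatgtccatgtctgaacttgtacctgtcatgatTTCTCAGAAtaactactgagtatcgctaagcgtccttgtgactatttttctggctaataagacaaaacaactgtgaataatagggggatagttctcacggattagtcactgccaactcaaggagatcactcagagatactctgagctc
Of 32851 RefSeq promoters of the same 300 bases (250 before and 50 after the start), 8.3% held that motif on either strand. No other p200 member with an entry held it.

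The second motif searched was GAAA followed, after any 2 bases, by GAAA again. It is the core of the interferon-stimulated response element, again on both strands. It was in 3.44% of all 32851 promoters and in those of 6 of the 9 members with an entry. Those 6 were Ifi203, Ifi205, Ifi207, Ifi211, Ifi213 and Mndal, and the windows of Ifi202b, Ifi209 and Aim2 did not hold these letters. The 30-base stretches below show how alike the copies are around the motif, which is in capitals.
Ifi203: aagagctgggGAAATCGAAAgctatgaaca
Mndal: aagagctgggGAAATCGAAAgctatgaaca
Ifi211: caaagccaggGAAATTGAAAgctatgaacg
Ifi205: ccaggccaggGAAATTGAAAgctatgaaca
Ifi207: cctagccaggGAAATCGAAAattaagaaca
Ifi213: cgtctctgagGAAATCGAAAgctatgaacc
They lie on the minus strand at chr1:173942508-173942537 (Ifi203), chr1:173880204-173880233 (Mndal, at the second of its starts), chr1:173913064-173913093 (Ifi211), chr1:174031870-174031899 (Ifi205), chr1:173741831-173741860 (Ifi207) and chr1:173599326-173599355 (Ifi213). In these stretches the motif was between 35 and 134 bases before the start of its promoter entry. Such a start can differ from the RefSeq gene start used for distances below. For Ifi203 (173942866), Mndal (173880382), Ifi211 (173913087) and Ifi213 (173599348), the motif lay after that gene start. Of the 2 promoter entries of Ifi203, the second did not hold the motif. The minus-strand search gave 1 more match in Ifi205, 23 bases after the start, and 1 more in Mndal, 54 bases before the first of its starts. The stretch of Ifi203 and that of Mndal were identical. A match is a description of letters and not a measured binding site. Over the whole window, the promoter of Ifi202b was at most 58.3% identical to any other member's (Ifi213), while Ifi207 and Ifi211 shared 87.0% of their bases.

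How far the copies can be told apart by reads was measured from their GENCODE transcripts, cut into all words of 50 bases. Ifi202b was the most distinct member: 100% of its 1648 words occurred in no other gene of the annotation. Aim2 followed with 99.2%, Ifi207 with 92.8% and Ifi203 with 89.3%. At the other end, 50.4% of the words of Ifi205 and 27.1% of those of Ifi211 were particular to them. Ifi205 and Ifi211 were each other's closest relatives, with 90.0% identity over their coding sequences and 49.5% of the words of Ifi205 found in Ifi211. The coding sequence of Ifi202b was closest to that of Ifi203, at 60.5%.

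**Figure D1:**
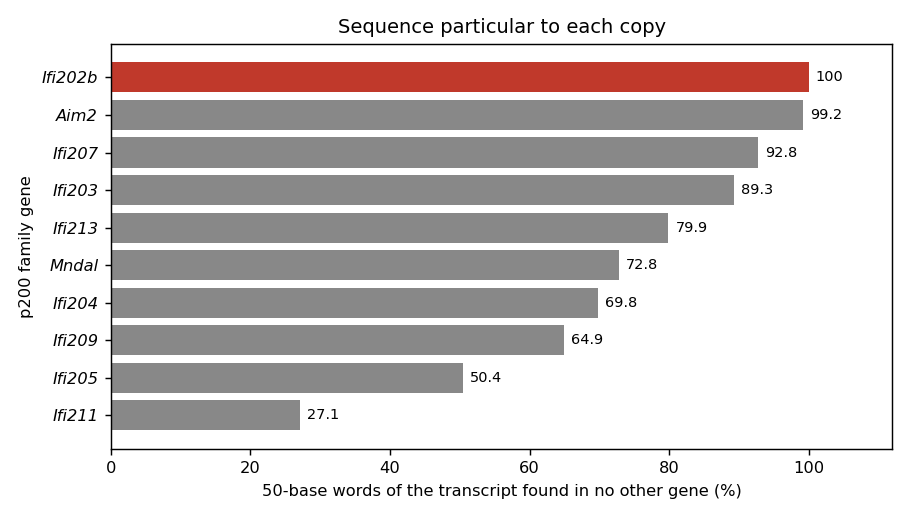
Share of the 50-base words of each member's GENCODE transcript that occur in no other gene, in percent, as bars from 0. Ifi202b (red) stands at 100%, and Ifi205 and Ifi211 stand lowest, at 50.4% and 27.1%.

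The stretch in which Ifi202b most resembles its neighbours is shown because it still holds 4 differing bases. Over bases 239 to 298 of its coding sequence, 56 of 60 bases matched Ifi205 (bases 686 to 745), Ifi211 (749 to 808) and Mndal (1007 to 1066). Capitals mark the differing bases.
Ifi202b: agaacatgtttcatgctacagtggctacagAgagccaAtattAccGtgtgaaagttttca
Ifi205: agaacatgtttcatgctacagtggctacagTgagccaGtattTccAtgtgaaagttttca
Ifi211: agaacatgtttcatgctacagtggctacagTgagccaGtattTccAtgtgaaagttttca
Mndal: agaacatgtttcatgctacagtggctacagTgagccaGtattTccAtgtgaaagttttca
Ifi205, Ifi211 and Mndal carried the same letters throughout, so a read from this stretch could come from any of them. The deposited expected counts are estimates that divide such reads between genes, and a value that is not whole shows a division. All 5 listed values of Ifi202b were whole numbers. None of the listed values of the other 9 members was whole, but counts are printed rounded below and some then read as whole. By contrast, 71.5% of the 14017 genes listed in all 6 libraries had whole counts in every library (within 0.005 of a whole number).

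Each library held 11961726 to 12423220 expected counts. The deleted gene, Has2, was counted 847, 889 and 835 times in HAS2_Tg and once per library (1 count) in Has2_KO, a ratio of 993 (95% exact interval 339 to 4816.0, counting error only), so it follows the knockout label. The rows are mouse genes, and whether reads of the human transgene were counted to Has2 was not tested. Stellate cell markers were present in all 6 libraries, with summed levels of 27361 to 31169 CPM (counts relative to the scaled library total) in HAS2_Tg and 13849 to 14477 CPM in Has2_KO. Across the 13014 genes tested with edgeR's quasi-likelihood test, 5298 (40.7%) had an adjusted p under 0.05, with 2625 higher (20.2%) and 2673 lower (20.5%) in HAS2_Tg. With scaling by total counts alone the split was 1477 higher (11.3%) against 4827 lower (37.1%), because that scaling shifts the median log2 fold change of all genes by -0.17. Changes are given with scaling by trimmed mean of M values (TMM), under which the median was -0.01. HAS2_Tg replicate 4 stood apart from the other 2 of its group, with a chi-square per degree of freedom of 22.8 and 31.5 against them and 6.24 between them. Without it 6 members were called lower and 1 higher, as with it.

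Ifi202b was present in the transgenic libraries and nearly absent from the knockout ones. It had 125, 169 and 167 expected counts in HAS2_Tg replicates 4, 5 and 6, and 1, 0 and 1 in Has2_KO replicates 7, 8 and 9. Every HAS2_Tg library was far above every Has2_KO library. On the FPKM scale, a level scaled by transcript length and library depth, the values were 5.82, 7.9 and 7.64 against 0.05, 0 and 0.05. The sums of 461 and 2 counts gave a ratio of 267 (95% exact interval 73.5 to 2210.9, counting error only). The fitted log2 fold change was 7.80 (SE 0.35), a value that depends on how the fit treats counts near 0: on log2(FPKM + 1) and log2(FPKM + 0.1) it was 2.96 and 5.77.

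The remaining members went the other way or differed less. Of the 10, 6 were called lower in HAS2_Tg beside 20.5% of all genes, 1 was called higher beside 20.2%, and 3 (Aim2, Ifi213 and Mndal) were not called. As the comparison led to the choice of the family, nothing is read from these counts. The same 7 genes had groups that did not overlap in CPM, which held for 26.9% of all genes in the lower direction and 25.2% in the higher. The median log2 fold change of the 10 was -0.57 against -0.01 over all genes. Ifi202b was the only member with a positive value.

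**Figure D2:**
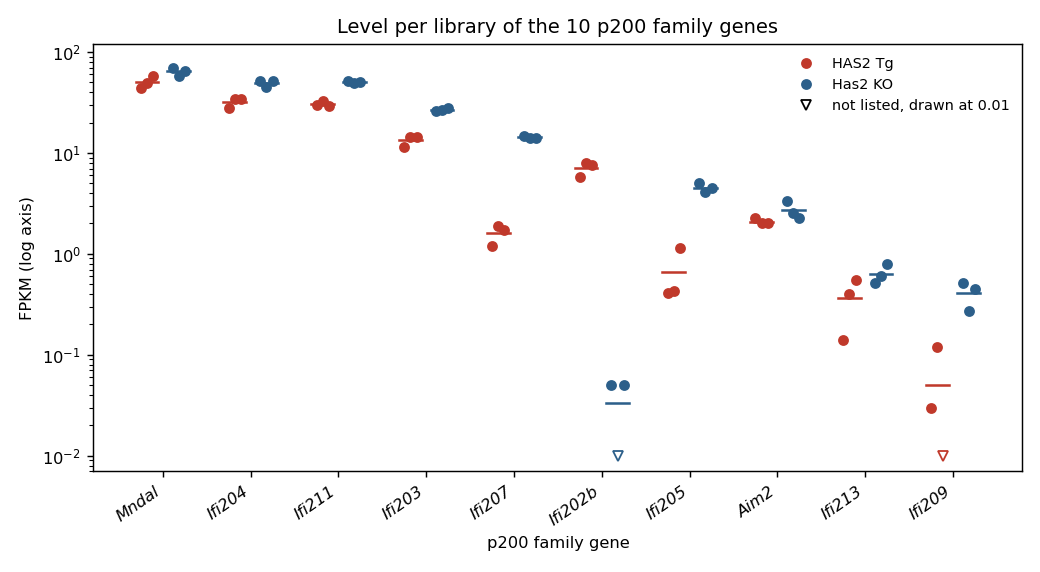
FPKM (log axis) of the 10 members in each library, HAS2_Tg in red and Has2_KO in blue, with the group mean as a line; open triangles at 0.01 stand for libraries that do not list the gene. Ifi202b lies near 7 FPKM in HAS2_Tg and at most 0.05 in Has2_KO, and the other members lie at or above their HAS2_Tg mean in Has2_KO.

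Ifi207, a copy with a pyrin domain and a long repeat-rich linker, had the most negative fitted fold change, close to that of Ifi209. It had 50.2, 79.0 and 74.8 expected counts in HAS2_Tg and 643.7, 611 and 615.8 in Has2_KO. The highest HAS2_Tg library was far below the lowest Has2_KO library. Its level was 1.60 ± 0.365 FPKM (SD, n = 3) in HAS2_Tg and 14.3 ± 0.429 FPKM in Has2_KO, a log2 fold change of -2.98 (SE 0.13). Of its words, 92.8% are its own.

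Ifi205, a pyrin and HIN copy long known as D3, had 7.91, 8.26 and 22.3 expected counts in HAS2_Tg. Has2_KO held 100.1, 82.2 and 88.2. The groups did not overlap, and HAS2_Tg replicate 6 lay well above the other 2 of its group. The log2 fold change was -2.61 (SE 0.28), and -3.25 without HAS2_Tg replicate 6. Because Ifi205 and Ifi211 share so many words, their sum is given too: 54.3 ± 1.81 CPM (SD, n = 3) in HAS2_Tg and 84.7 ± 1.89 CPM in Has2_KO. The pair together was lower in every HAS2_Tg library than in any Has2_KO library.

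Ifi211 itself, another pyrin and HIN copy, had 587.5, 639.1 and 586 expected counts in HAS2_Tg and 1037.7, 1008.9 and 1022.2 in Has2_KO. The groups were separate and each was tight. Its log2 fold change was -0.55 (SE 0.07). Ifi204, the copy most often compared with human IFI16, had 781.2, 935.5 and 955 counts against 1454.2, 1296.1 and 1461.2. HAS2_Tg replicate 4 was lowest, and the groups did not overlap. The log2 fold change of Ifi204 was -0.45 (SE 0.09), and 23.2% of its words occur in Ifi211. The 2 genes summed to 131.6 ± 7.74 CPM (SD, n = 3) in HAS2_Tg against 184.6 ± 8.46 CPM in Has2_KO.

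Ifi203, the member nearest to Ifi202b on the side of lower coordinates, had 503.1, 633.5 and 640.4 expected counts in HAS2_Tg and 1185.6, 1211.7 and 1247.7 in Has2_KO. All 3 HAS2_Tg libraries were below all 3 Has2_KO libraries. The log2 fold change was -0.83 (SE 0.09), and 89.3% of its words are its own.

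By mean level Ifi209 was the scarcest member apart from Ifi202b in the knockout. It had 1.28 and 5.14 expected counts in HAS2_Tg replicates 4 and 5, was not listed in replicate 6, and had 22.5, 11.98 and 19.7 in Has2_KO. The groups did not overlap, but the rounded sums were 6 against 55 counts, a ratio of 0.126 (95% exact interval 0.0444 to 0.293, counting error only). In the fit the log2 fold change was -2.91 (SE 0.60), and -4.69 without HAS2_Tg replicate 5. Its closest relative by words is Ifi214, which is not among the 10 and was too low to be tested, and the pair summed to 0.234 ± 0.181 CPM (SD, n = 3) in HAS2_Tg against 1.85 ± 0.269 CPM in Has2_KO.

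Mndal, whose human relative is the myeloid nuclear differentiation antigen, was the most abundant member. It had 1014.4, 1146.3 and 1358.5 expected counts in HAS2_Tg and 1660.8, 1377 and 1556.6 in Has2_KO. On the CPM scale HAS2_Tg replicate 6 lay inside the Has2_KO range, so the groups overlapped. The log2 fold change was -0.17 (SE 0.10), and the edgeR adjusted p was 0.187. That call turned on the scaling and on 1 library: with total counts the log2 fold change was -0.35 (edgeR adjusted p 0.0115), and without HAS2_Tg replicate 6 it was -0.29 (edgeR adjusted p 0.0179). In GENCODE the gene spans the loci of Ifi211 and Ifi203 on the same strand, so reads of the 3 genes may be divided differently under another annotation.

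Aim2, the DNA sensor of the family, had 69.0, 61.0 and 62.6 expected counts in HAS2_Tg and 105.8, 81.0 and 71.9 in Has2_KO. In CPM the groups overlapped, at 5.67 ± 0.458 and 6.57 ± 1.33 (SD, n = 3). The log2 fold change of -0.21 (SE 0.17) was not called, and it was -0.04 without Has2_KO replicate 7. Ifi213 had 4.56, 12.8 and 18.2 counts against 17.0, 19.9 and 25.9, with overlapping groups in CPM and a log2 fold change of -0.59 (SE 0.37) that was not called. Without HAS2_Tg replicate 4 it was -0.24, and without HAS2_Tg replicate 6 it was -1.

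The neighbour Ifi208 bears on Ifi213, since 19.3% of the words of Ifi213 occur in it. Ifi208, which is not among the 10, rose: it had 73.4, 88.8 and 100.8 expected counts in HAS2_Tg and 39.0, 47.2 and 39.1 in Has2_KO, a log2 fold change of 1.28 (SE 0.18, edgeR adjusted p 3.21e-05). It was higher in 3 of 3 HAS2_Tg libraries. The pair Ifi213 and Ifi208 summed to 8.76 ± 1.71 CPM (SD, n = 3) in HAS2_Tg against 4.77 ± 0.445 CPM in Has2_KO. Their promoters were 94.0% identical.

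**Figure D3:**
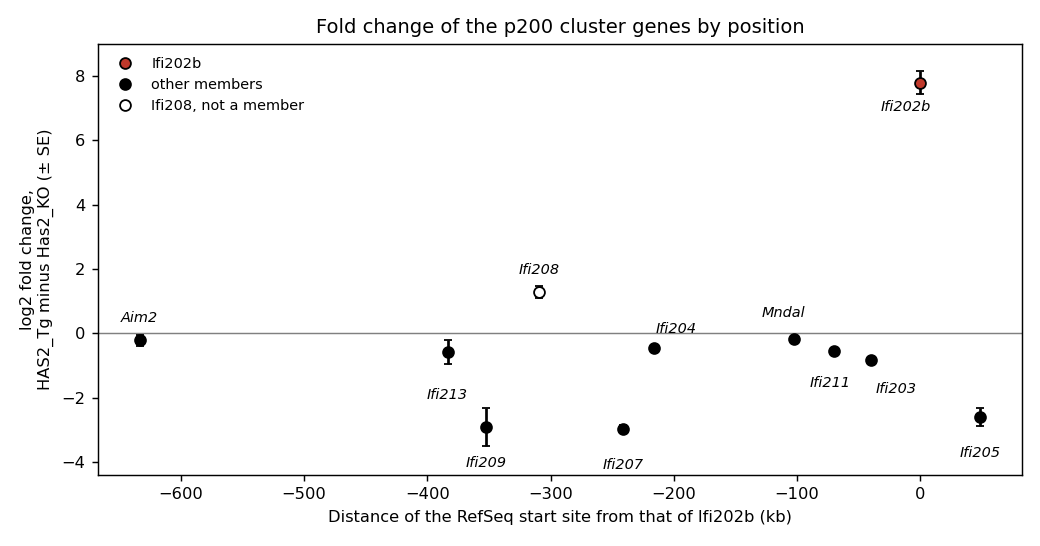
log2 fold change, HAS2_Tg minus Has2_KO, with its SE as bars, against the distance in kb of each gene's RefSeq start from that of Ifi202b. Ifi202b stands at 7.80, its neighbours Ifi203 (-40.0 kb) and Ifi205 (48.9 kb) stand at -0.83 and -2.61, and Ifi208, which is not a member, at 1.28.

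The order of levels within a group was read from FPKM, which allows genes of different length to be compared. In HAS2_Tg, Mndal was highest (50.4 ± 6.99 FPKM, SD, n = 3), followed by Ifi204 (32.0 ± 3.32) and Ifi211 (30.5 ± 1.80), whose ranges overlapped. Ifi203 (13.4 ± 1.72), Ifi202b (7.12 ± 1.13), Aim2 (2.09 ± 0.142) and Ifi207 (1.60 ± 0.365) came next, each range separate from the next. Ifi205 (0.66 ± 0.416) and Ifi213 (0.363 ± 0.207) overlapped, and Ifi209 was last. Ifi202b thus stood at rank 5.

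In Has2_KO, Mndal was again first (64.2 ± 6.17 FPKM, SD, n = 3), with Ifi211 (50.3 ± 0.825) and Ifi204 (49.2 ± 3.38) overlapping behind it. Ifi203 (26.9 ± 0.692), Ifi207 (14.3 ± 0.429), Ifi205 (4.54 ± 0.467) and Aim2 (2.73 ± 0.560) were separate from one another. Ifi213 (0.633 ± 0.143) and Ifi209 (0.413 ± 0.129) overlapped, and Ifi202b was at rank 10. The first 4 places held the same genes in both groups, and Ifi202b, Ifi207 and Ifi205 changed places below them.

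Gain and loss between copies were compared on the CPM scale, on which reads can be added up. Ifi202b gained 13.5 CPM in HAS2_Tg. The differences of the others, HAS2_Tg minus Has2_KO, were -41.5 CPM for Ifi207, -40.3 for Ifi203, -28.4 for Ifi204, -24.6 for Ifi211, -13.3 for Mndal and -5.73 for Ifi205. For Ifi209, Aim2 and Ifi213 they were -1.22, -0.894 and -0.546 CPM. The differences of Ifi207 and Ifi203 were alike within the spread of Ifi203 (SD 6.06 CPM in HAS2_Tg). The loss of Ifi207 alone was larger than the gain of Ifi202b. In the GENCODE transcripts the 2 genes share no 50-base word. Whether reads were assigned to another copy in these libraries was not tested.

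Summed over the 10 members, the family was lower in HAS2_Tg. The libraries held 282.0, 321.8 and 339.5 CPM in HAS2_Tg and 473.6, 432.3 and 466.3 in Has2_KO. The means were 314.4 ± 29.4 and 457.4 ± 22.1 CPM (SD, n = 3), and no HAS2_Tg library reached the lowest Has2_KO library. Without Ifi202b the means were 300.9 ± 27.6 and 457.3 ± 22.02 CPM. The log2 fold change of the sum was -0.54 (SE 0.08), with a range of -0.71 to -0.47 over the alternative settings.

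As shares of the family's expected counts, 3 members changed most in percentage points. Ifi202b made up 4.28% ± 0.303 (SD, n = 3) of the family in HAS2_Tg and 0.0108% ± 0.00936 in Has2_KO. Ifi207 made up 1.89% ± 0.274 and 10.4% ± 0.322, and Mndal 32.8% ± 2.00 and 25.4% ± 1.253. The groups did not overlap for any of these 3 genes. Ifi203 took 16.6% ± 0.587 in HAS2_Tg and 20.2% ± 1.12 in Has2_KO, also without overlap. The share of Ifi211 was 17.0% in both groups, with SDs of 1.82 and 0.581. That of Ifi204 was 24.9% ± 0.392 in HAS2_Tg and 23.3% ± 0.587 in Has2_KO, but its shares of summed FPKM overlapped.

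**Figure D4:**
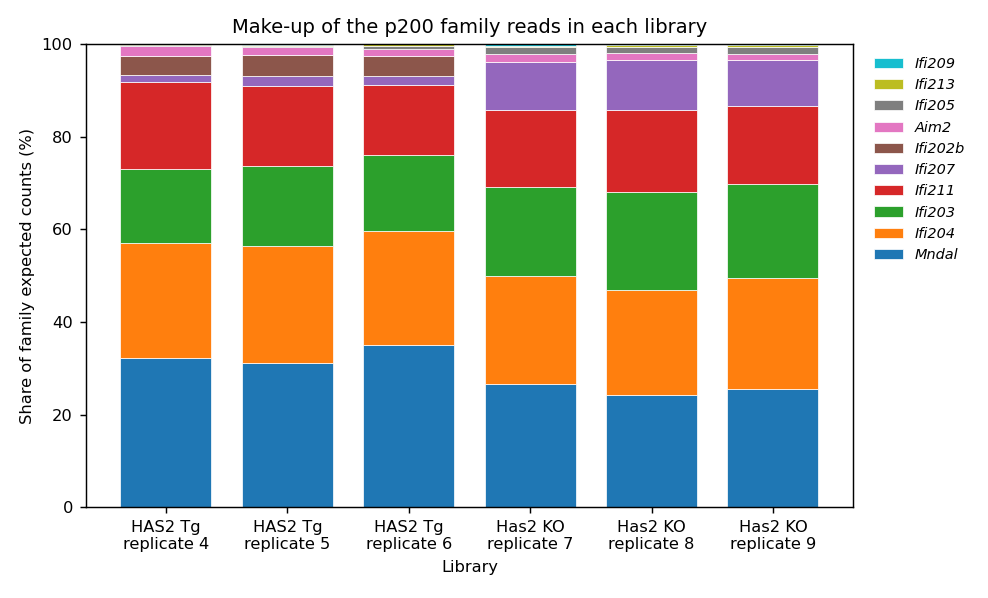
Share in percent of the family's summed expected counts held by each member, stacked to 100%, in the 6 libraries. Ifi202b (brown) holds about 4% in each HAS2_Tg library and is not visible in Has2_KO, where Ifi207 (purple) holds about 10%.

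Cell type markers moved with the genotype, and p200 genes are also expressed in macrophages. All 23 tested Kupffer cell and macrophage markers of 24 fell in HAS2_Tg. The summed level of the list there was 17.2 to 19.3 CPM against 756.6 to 812.6 CPM in Has2_KO. Clec4f and Timd4 had no counts in any HAS2_Tg library, and at most 6.08 and 0.687 CPM in Has2_KO. All 20 liver endothelial markers fell, with sums of 41.5 to 48.3 against 1212.2 to 1318.2 CPM, and Gpihbp1 and Emcn were at 0 in HAS2_Tg. Of 9 listed dendritic cell and neutrophil markers 5 were tested and 3 fell, with sums of 12.3 to 14.0 against 45.4 to 46.9 CPM. Flt3, Ccr7, S100a8 and Elane were at 0 in HAS2_Tg, but they were near 0 in Has2_KO too, at no more than 0.153 CPM. The falls of these marker lists ran in the direction of the 6 lower members and against that of Ifi202b. Their part in either was not tested. In such bulk samples fewer cells of a type and less RNA per cell cannot be told apart. Lymphocyte and plasmacytoid markers were scarce, with 1 of 10 listed genes tested: Bst2, itself interferon-inducible, rose by a log2 fold change of 0.30 (SE 0.08, edgeR adjusted p 0.00708). With total counts it stood at 0.12 and was not called (edgeR adjusted p 0.208). The list summed to 103.6 to 121.0 CPM in HAS2_Tg and 89.9 to 93.2 CPM in Has2_KO. Nearly all of that sum was Bst2, at 101.4 to 118.5 CPM in HAS2_Tg and 86.3 to 90.3 CPM in Has2_KO. The next highest gene, Cd8a, reached at most 1.29 CPM, in Has2_KO. Cd3e and Nkg7 were at 0 in HAS2_Tg, and at most 0.303 and 0.152 CPM in Has2_KO. Of 21 stellate cell markers, 17 rose and 0 fell (14 and 1 with total counts), so these markers moved against those of macrophages and endothelium.

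The pathway around the family was read from lists of its other genes, and these did not all fall with the members. Interferon ligands were at the edge of detection: 4 of 9 were listed, none was tested, and their sum did not exceed 0.0897 CPM in HAS2_Tg or 0.687 CPM in Has2_KO. Among 21 tested receptors and JAK, STAT and IRF factors, 2 rose, 7 fell and the median log2 fold change was -0.16, which is 9.52% and 33.3% of the list beside 20.2% and 20.5% of all genes. With total counts 0 rose and 12 fell (0% and 57.1%, beside 11.3% and 37.1% of all genes). The receptor subunits fell, Ifnar1 by 0.46 (SE 0.08, edgeR adjusted p 0.000209) and Ifnar2 by 0.80 (SE 0.08, edgeR adjusted p 6.73e-07) on the log2 scale. The log2 fold changes of Stat2 and Irf9, which act in the response to type I interferon, were 0.19 and -0.02, and neither was called, although Stat2 was (0.24, edgeR adjusted p 0.0423) without HAS2_Tg replicate 5. Irf8 and Irf5, which are abundant in macrophages, fell by 1.23 and 1.66 on the log2 scale, and Usp18, a brake on interferon signalling, stood at 0.34 (edgeR adjusted p 0.0128). That call was lost with total counts (0.17, edgeR adjusted p 0.184), in the limma fits (0.16 to 0.17) and without Has2_KO replicate 7 (0.29) or replicate 9 (0.33).

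Interferon-inducible effectors outside the cluster held genes that rose and genes that fell. Of 53 tested, 16 rose (30.2%, beside 20.2% of all genes), 12 fell (22.6%, beside 20.5%, near the background) and 25 were not called, with a median log2 fold change of 0.04. With total counts 10 rose and 20 fell (18.9% and 37.7%, beside 11.3% and 37.1% of all genes), and the median was -0.14. Ifi27l2a rose by 1.43 (SE 0.11), and the RNA-binding antiviral factors Ifit2 and Ifit3 each rose by 0.77 (SE 0.08 and 0.07) on the log2 scale. On the same scale Ifitm1 stood at -1.5 (SE 0.12), Oasl1 at -1.45 (SE 0.16) and the nucleic acid sensor Zbp1 at -0.78 (SE 0.11), all called lower. The ubiquitin-like Isg15 stood at 0.26 (SE 0.09, edgeR adjusted p 0.0287). Its call was lost with total counts (0.09), in the limma fits (0.08), in the DESeq2 Wald test (adjusted p 0.0595) and without HAS2_Tg replicate 5 (0.22), Has2_KO replicate 7 (0.25) or Has2_KO replicate 9 (0.22). Ifit1 stood at 0.00 (SE 0.09) and was not called, and Irf7 stood at 0.21 and was called only without HAS2_Tg replicate 4 or 6 (0.25 each).

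Genes of cytosolic DNA sensing and of the inflammasome were counted next. Of 24 cytosolic DNA sensing and STING pathway genes, 2 rose (8.33%, beside 20.2% of all genes), 10 fell (41.7%, beside 20.5%) and the median log2 fold change was -0.26 against -0.01 over all genes. The difference from other genes was not tested. Cgas, the enzyme that senses DNA, fell by 0.64 (SE 0.13) on the log2 scale, the adaptor Sting1 by 0.39 (SE 0.10), and the kinases Tbk1 and Ikbke by 0.41 (SE 0.08) and 1.34 (SE 0.11). Lrrfip1 and the nucleotidase Samhd1 rose by 0.57 (SE 0.09) and 0.50 (SE 0.08).

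Of 17 tested inflammasome genes, 1 rose (5.88%, beside 20.2% of all genes), 11 fell (64.7%, beside 20.5%) and the median was -1.41, again with no test against other genes. The 1 that rose, Txnip (0.33, SE 0.08), lost its call in the limma fits (0.16) and under total counts (0.16, edgeR adjusted p 0.104). Among those that fell, the log2 fold change was -2.87 for Casp1 (SE 0.21), -1.73 for Casp4 (SE 0.09), -1.41 for the sensor Naip2 (SE 0.10) and -5.37 for the interleukin-1 receptor antagonist Il1rn (SE 0.26). The adaptor Pycard stood at 0.20 (SE 0.20) and the pore-forming Gsdmd at -0.06 (SE 0.09), and neither was called. With total counts Gsdmd was called lower (-0.24, edgeR adjusted p 0.0404), as it was in the limma fits. The cytokines Il1b and Il18 had no counts in HAS2_Tg. In Has2_KO they reached 1.85 ± 0.307 and 1.19 ± 0.292 CPM (SD, n = 3). Many of these genes are also expressed in macrophages, whose markers fell as given above, and the part of those cells in these counts was not tested.

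**Figure D5:**
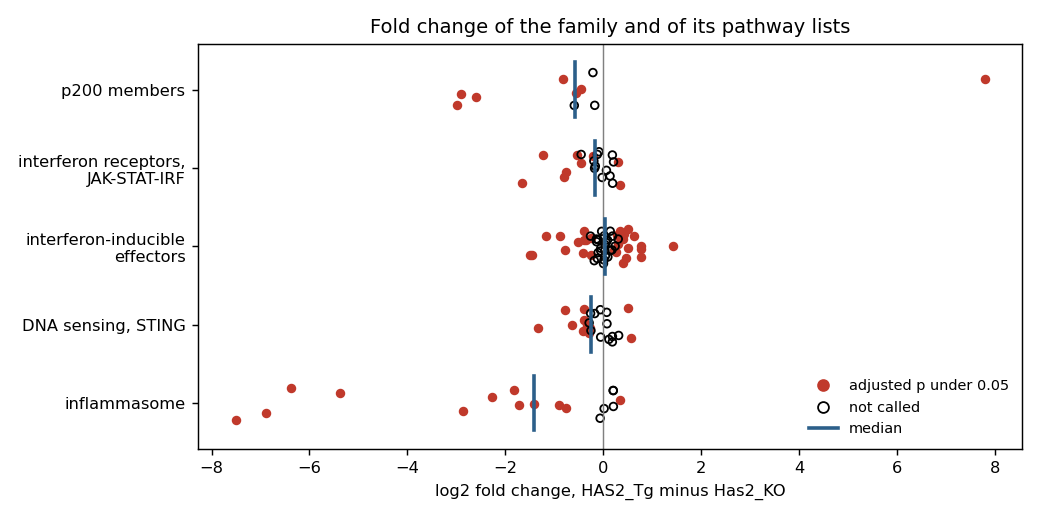
log2 fold change, HAS2_Tg minus Has2_KO, of the tested genes of each list, 1 point a gene, filled red where the edgeR adjusted p was under 0.05; the blue line is the list's median and the vertical scatter within a list has no meaning. The medians are -0.57 for the members, -0.16, 0.04 and -0.26 for the next 3 lists, and -1.41 for the inflammasome.

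The genes beyond the ends of the cluster, which spans 682.2 kb from Aim2 to Ifi205, were compared next. Of the 20 listed genes nearest on each side, 27 were tested and 14 were called (51.9%, against 40.7% of all genes), 7 higher and 7 lower, with a median log2 fold change of 0.03. Without Has2_KO replicate 7, 9 were called. Cadm3, a cell adhesion gene, was counted on the side of Aim2, although its RefSeq span reaches into that of Aim2 and so into the cluster. Cadm3 rose from 64.4 ± 3.81 CPM in Has2_KO to 162.3 ± 13.9 CPM in HAS2_Tg (SD, n = 3, log2 fold change 1.33, edgeR adjusted p 7.91e-09). Rgs7, a regulator of G protein signalling beyond Ifi205, rose by a log2 fold change of 1.91 (edgeR adjusted p 5.31e-07). Slamf8, a surface protein of macrophages, fell by 2.17 (edgeR adjusted p 1.57e-08) on the log2 scale.

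The genes whose profile over the 6 libraries was most like that of Ifi202b were ranked by the Euclidean distance between log2 CPM values centred on each gene's mean. The nearest were Stbd1 (distance 2.55), Angpt1 (2.67), Igfbp3 (2.71), Has2 (2.86) and Ptger3 (2.94). All 5 were far higher in HAS2_Tg, as the choice of a profile that high requires. Stbd1 had a log2 fold change of 4.12 and Has2 of 9.77, so Ifi202b lay between them. For Mndal, the most abundant member, the nearest were Ncl (0.10), Cpsf7, Usp1 and Zfp661 (0.12 each) and Zfyve16 (0.13), all with log2 fold changes between -0.25 and -0.16 and, like Mndal, called lower with total counts only among the scalings.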

How the data were processed

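RNA was sequenced in 6 libraries, 3 per genotype, grouped by the genotype in their labels. The submitters' processing notes name RSEM and mm10. The version of RSEM, the aligner and the read length are not given in the sources used here. The 6 deposited files hold an expected count, the authors' estimate of reads per gene, and an FPKM value, computed by the authors from length and depth, per the file headers. A gene missing from a library was set to 0, which filled 12658 cells. Of 17909 identifiers, 17857 were named through the RefSeq and gene name tables.

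After rounding of the expected counts, the 13014 genes that filterByExpr kept were scaled by TMM, and the two-sided robust quasi-likelihood test of edgeR was run with Benjamini-Hochberg adjustment at 0.05. The contrast is HAS2_Tg minus Has2_KO. CPM values are TMM-normalised, and SE was obtained by dividing the fitted log2 difference by the root of the F statistic. Ratios of summed counts are scaled by the TMM-adjusted totals and carry 95% exact intervals. No molecular identifiers were used, so reads are not independent molecules and the intervals cover counting error alone. Depth was about equal in all libraries, and a gene with a few counts, such as Ifi209, is known only to the interval given. Pairs of libraries within a group differed by more than sampling noise (over genes of 20 or more counts, chi-square per degree of freedom was 6.24 to 31.5 within HAS2_Tg and 2.31 to 3.17 within Has2_KO). That does not show that they come from separate animals; each library labelled as a replicate was counted as 1.

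Promoters came from RefSeq (GRCm38.p6), and coding sequences and transcripts from GENCODE M21 (GRCm38), 1 transcript per gene for identity and 1 for words. All 10 members had a coding sequence and 9 of 10 a promoter. The members and the 12 gene lists were chosen with earlier results of these data known. Genes were named by rule: Has2, the members, other listed genes of the cluster, up to 3 called genes per list and direction by adjusted p, a few fixed pathway genes, up to 3 called flanking genes per side, and the 5 tested genes nearest in profile to Ifi202b and to the most abundant member. Some genes that the rule names are not reported here.

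The following alternatives were run. Scaling used DESeq2 size factors or total counts. Low counts were kept, or genes had to reach 5 CPM on average and 1 CPM throughout a group. The test was changed to DESeq2's Wald test, or to limma after adding 1 or 0.1 to FPKM and taking log2 (for genes reaching 1 FPKM in 3 libraries, and once unfiltered). Each library was dropped in turn, the threshold was set to 0.01, other sums and shares were formed, and 10 flanking genes a side were taken. Data were simulated for this comparison (12869 genes, 200 changed) with 1 spread for every gene, a dispersion of 0.01 not fitted to these libraries. On these, edgeR called 12% of the genes given a 1.25-fold change and 69.4% of those given 1.5-fold. It called 93.9% for 2-fold and 100% for 4-fold, and 9 of 145 calls (6.21%) were false. Software was Python 3.11.15 (Biopython 1.88, matplotlib 3.10.9, numpy 2.4.6, pandas 2.3.3 and scipy 1.17.1) and R 4.3.3 (DESeq2 1.42.0, edgeR 4.0.16 and limma 3.58.1).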

Additional observations from a re-analysis of the deposited data

How the results depend on the processing

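Ifi202b stayed the only member called higher under every alternative run, and 4 to 7 members were called lower. The 4 came from the stricter filter, under which Ifi205, Ifi209 and Ifi213 were not tested. With total counts 7 were called lower, beside 37.1% of all genes in place of 20.5%. Of the alternative values of the members' fold changes, 128 kept both direction and call and 5, all of Mndal, passed the threshold newly. Of the other named genes' values, 788 kept both, 26 lost the call and 31 gained it; the calls lost were all of rises of at most 0.34 on the log2 scale, such as those of Usp18, Txnip, Bst2 and Isg15. The genes higher in HAS2_Tg, 2625 in all, numbered 1477 with total counts and 1399, 1376 and 1366 with limma on log2(FPKM + 1), on log2(FPKM + 0.1) and with no filter. The 2673 lower genes numbered 4827, 4198, 4138 and 4596 under the same settings. The 14 called flanking genes became 9 to 16 with 1 library left out and 9 at an adjusted p of 0.01. With 10 genes a side fewer genes were tested. Of those 13, 8 were called (61.5%, beside 51.9% of the 27 tested with 20 a side and 40.7% of all genes). The difference in share of the family, HAS2_Tg minus Has2_KO, became -5.57 points for Ifi207 and 5.11 points for Ifi202b as shares of FPKM, in place of -8.49 and 4.27. Irf9 ranged from -0.07 to 0.03 with 1 library left out, above 0 without HAS2_Tg replicate 4. Ifit1, near 0, changed sign with total counts (-0.17), the stricter filter (-0.01), limma on FPKM (-0.17, -0.18 and -0.17) and without single libraries (range -0.04 to 0.08), never past the threshold. The cause of these changes was not tested, other than that the stricter filter tests fewer genes. No paired analysis was possible because the groups share no replicate numbers. With 3 libraries a group, changes under 1.5-fold were often missed in simulation, so the 3 members not called may differ by that much. That simulation gave every gene the same dispersion, so it sets no bound for a scarce gene such as Ifi213. The log2 fold change of Ifi213 was -0.59 (SE 0.37), and -1 without HAS2_Tg replicate 6, so it may differ by more.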
